A study of Mus musculus with 35 samples.

Results

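The interleukin-6 family cytokines and the STAT3 feedback arm that they act through were followed in healing mouse skin, as 9 genes found by symbol in the deposited counts out of 22831 symbols listed. The genes are the ligands Il6, Osm, Lif and Il11, the receptor chains Il6ra, Il6st and Osmr, the transcription factor Stat3 and the feedback inhibitor Socs3. All 9 passed the filter on low counts in each of the 7 group comparisons. RNA-seq was available from 35 wounds in 8 groups, deposited as 2 count tables that were analysed separately.

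All animals were adult mice of both sexes whose Col5a1 alleles, encoding the alpha 1 chain of type V collagen, were both floxed, and all received tamoxifen around the time of a full thickness excision on the back. WT denotes littermates without Cre. Col5a1CKO denotes littermates carrying Col1a2CreERT, a tamoxifen-inducible Cre under a collagen enhancer that is active in fibroblasts. The design was meant to remove Col5a1 from fibroblasts and leave it intact in other cells. How complete the removal was in each cell type cannot be read from bulk wound RNA. The first table held 7 WT and 7 Col5a1CKO wounds from day 14, 3 Col5a1CKO wounds from day 14 that had been injected with WT fibroblasts a few days after wounding, and 3 WT and 3 Col5a1CKO wounds from day 19. Per the study's methods, animals of the fibroblast experiment that were not given fibroblasts received PBS. Whether this held for the day 19 animals is not stated. The 7 Col5a1CKO wounds of day 14 without fibroblasts are called control wounds below. The deposited records conflict on the fibroblasts: titles and column headers place them in the 3 wounds of day 14, whereas a treatment field assigns them to the 3 Col5a1CKO wounds of day 19. Titles were followed, and if the field were right, the day 19 and fibroblast comparisons would mean something else. The second table held day 14 wounds from 4 WT animals given vehicle, 4 Col5a1CKO animals given vehicle and 4 Col5a1CKO animals given cilengitide, an inhibitor of the integrins αvβ3 and αvβ5 injected daily from before wounding until harvest. The tissue was a punch from the wound centre, so scar, crust, inflammatory infiltrate and any new epidermis were read together. In such bulk tissue, fewer cells of a type and less RNA per cell cannot be told apart.

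Cytokines of this family signal through a complex that contains the shared chain encoded by Il6st, paired with a chain specific to the ligand such as those encoded by Il6ra and Osmr. Receptor engagement activates JAK kinases, which phosphorylate STAT3, and the active STAT3 dimer switches on target genes that include Socs3, whose product blocks the receptor complex and so limits the signal. In skin, interleukin-6 and oncostatin M are known for driving keratinocyte migration and inflammatory gene expression, and interleukin-11 for its action on fibroblasts.

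The 9 genes lie on 6 chromosomes of the NCBI37 mouse assembly, the build to which the reads were aligned. Osm (chr11:4136423-4141029, plus strand) and Lif (chr11:4157560-4172517, plus strand) are neighbours, and Stat3 (chr11:100746412-100800854, minus strand) and Socs3 (chr11:117827393-117831361, minus strand) lie further along the same chromosome. Il6 lies at chr5:30339701-30346508, Il11 at chr7:4724669-4734460, Il6ra at chr3:89673246-89717084, Il6st at chr13:113265216-113297068 and Osmr at chr15:6763577-6824313. Counts were summed over exons. The Stat3 span overlaps Stat5a on the opposite strand. The library kit preserved strand, but strand use in counting was not stated, so it is not known whether reads of the pair were separated.

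Promoter sequence of 250 bases before the annotated start was available from RefSeq (GRCm38.p6) for 8 of the 9 genes, Osm being the one without an entry. Both strands were searched for the STAT dimer motif TTCNNNGAA, which 7.02% of 32851 promoters of this length hold, and for the AP-1 motif TGANTCA, which 6.75% hold. The Socs3 promoter held 1 STAT match, beginning 154 bases before the start, and no other member held one in this window. AP-1 matches were found before Il6, Lif and 1 of the 2 annotated Il11 starts. The promoters of Socs3 and Il11 are shown because these genes stand at the end and at the head of the pathway and changed in most comparisons below, with the matched motif in capitals and each read 5′ to 3′ on the minus strand of GRCm38.p6.
Socs3 chr11:117969367-117969616: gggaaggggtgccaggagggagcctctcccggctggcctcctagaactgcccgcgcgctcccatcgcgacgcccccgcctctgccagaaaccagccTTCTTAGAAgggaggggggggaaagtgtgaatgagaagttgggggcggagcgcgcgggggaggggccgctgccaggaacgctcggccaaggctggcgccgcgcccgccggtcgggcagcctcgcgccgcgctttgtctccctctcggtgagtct
Il11 chr7:4778142-4778391: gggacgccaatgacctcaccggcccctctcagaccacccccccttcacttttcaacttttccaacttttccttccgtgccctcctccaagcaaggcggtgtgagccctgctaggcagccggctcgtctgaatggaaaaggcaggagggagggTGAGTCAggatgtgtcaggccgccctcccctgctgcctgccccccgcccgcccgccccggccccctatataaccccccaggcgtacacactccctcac
A match describes the letters of the window and no binding was measured.

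Libraries of the first table held 15043838 to 35702578 counts and those of the second 51211643 to 68266808. Wounds of the first table fell into 2 library sets, separated by a gap of 1.54 in the log2 difference between GC-rich and GC-poor genes. The lower set held 4 WT and 5 Col5a1CKO wounds of day 14, and the upper set held 3 WT and 2 Col5a1CKO wounds of day 14 with all fibroblast-injected and all day 19 wounds, so for the genotype comparison at day 14 values within each set are given beside the pooled ones. Sex, read from Xist and Y-linked RNA, was unevenly spread. In the upper set all 3 WT wounds of day 14 held Y-linked RNA, while both Col5a1CKO wounds of day 14, all 3 fibroblast-injected and all 3 Col5a1CKO wounds of day 19 held Xist RNA. Within the upper set at day 14, sex and group therefore cannot be told apart for any comparison with WT. The study lists animals of both sexes in the fibroblast-injected and the day 19 Col5a1CKO groups. Xist RNA in all wounds of these groups does not match that, and the source of the mismatch was not tested. In the lower set, 2 of 4 WT and 4 of 5 Col5a1CKO wounds held Y-linked RNA. In the second table, vehicle WT and cilengitide wounds each had 2 of 4 with Xist and 2 of 4 with Y-linked RNA. Of the 4 vehicle Col5a1CKO wounds, 0 held Xist and 3 held Y-linked RNA. The part of sex was not tested in either table. Col5a1 averaged 1069 ± 870 CPM (counts scaled to the library total, SD, n = 7) in WT and 397 ± 172 (n = 7) in Col5a1CKO wounds at day 14, and 1520 ± 1228 and 692 ± 449 (n = 4 each) in the vehicle groups. Neither difference passed the edgeR test after adjustment over all genes (adjusted p = 0.0757 and 0.232). The study, testing this gene alone with a Mann-Whitney test, reported lower Col5a1 in Col5a1CKO skin at day 14 by qPCR and by RNA-seq. Vehicle Col5a1CKO replicate 2 held neither Xist RNA (1.01 CPM) nor RNA of Y-linked genes (0 CPM), unlike every other library of its table. These sex-linked values are CPM of the plain library total. Without it, 5 members were called in each of the 2 comparisons that use it, as with it. Wounds are labelled as separate samples, and p-values measure the spread between them.

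A gene was called when its adjusted p was below 0.05 and its level differed at least 2-fold. The share of all genes whose groups did not overlap was counted only for day 19, injected against WT, and cilengitide against vehicle WT. In the other comparisons a lack of overlap describes single genes and was not set against all genes. At day 14, Col5a1CKO wounds held more Il6, Il11, Osmr and Socs3 RNA than WT wounds. These were 4 of 9 members called higher and 0 lower, where 5.57% of 14368 genes tested were called higher and 2.71% lower. The median log2 fold change was 1.39 over the members and -0.03 over all genes tested.

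Il6, the founding ligand of the family, was close to absent from WT wounds at day 14. Its level was 0 CPM in the lowest, 0.07 in the median and 1.07 in the highest WT wound, from 0 to 17 reads. In Col5a1CKO wounds it was 0.99 CPM in the lowest, 25.5 in the median and 149 in the highest. The lowest Col5a1CKO wound, replicate g, lay just under the highest WT wound, and the other 6 lay above all WT wounds. The log2 fold change was 7.70 ± 1.21 (SE, adjusted p = 0.00421). Within the lower library set it was 7.91 (adjusted p = 0.0169) and within the upper set 5.60, where the call was lost (adjusted p = 0.0817).

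Il11, a ligand known for its action on fibroblasts and other stromal cells, followed the same order. WT wounds held 0, 0.25 and 3.07 CPM (lowest, median, highest), and Col5a1CKO wounds 1.72, 9.87 and 52.99 CPM. Col5a1CKO replicates b and d lay within the WT range and the other 5 above it. Il11 was higher by a log2 fold change of 4.33 ± 1.16 (adjusted p = 0.0293). It was 7.78 (adjusted p = 0.0177) in the lower set, where 3 of 4 WT wounds had no read, and 3.12 (adjusted p = 0.0826) in the upper set.

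Osm, a ligand made mainly by myeloid cells, varied widely within both genotypes. WT wounds ranged from 0.8 to 41.4 CPM with a median of 5.44, and Col5a1CKO wounds from 5.83 to 140 CPM with a median of 31.0. The ranges overlapped and the log2 fold change of 1.94 ± 0.99 did not pass the test (adjusted p = 0.221). It differed between library sets, at 1.07 ± 1.21 (adjusted p = 0.619) in the lower and 4.35 ± 1.5 (adjusted p = 0.114) in the upper set. In the upper set the WT wounds held 0.8 to 9.58 CPM and the Col5a1CKO wounds 21.0 and 123 CPM, without overlap. Lif, the ligand named for leukaemia inhibition, ranged from 0 to 5.93 CPM in WT and, in Col5a1CKO wounds, from 2.66 to 10.8 CPM, with a log2 fold change of 1.25 ± 0.88 (adjusted p = 0.376). WT replicates a and b, both of the lower set, had no Lif read, and the log2 fold change was 2.14 ± 1.37 in the lower and 0.50 ± 0.50 in the upper set, neither past the test.

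Among the receptor chains, Osmr, the ligand-specific chain of the oncostatin M receptor, was called. It lay between 30.1 and 44.5 CPM in WT wounds (median 35.4) and between 45.4 and 157 CPM in Col5a1CKO wounds (median 86.7), with no overlap. Its log2 fold change was 1.39 ± 0.27 (adjusted p = 0.00778). It was 1.69 (adjusted p = 0.007) in the lower library set and 0.39 (adjusted p = 0.107) in the upper set, where the 2 Col5a1CKO wounds held 45.4 and 45.8 CPM.

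Il6st, the chain shared by the family, ranged from 54.5 to 166 CPM in WT and from 138 to 239 CPM in Col5a1CKO wounds. Its log2 fold change of 0.72 ± 0.24 did not pass (adjusted p = 0.0685), but within the lower set it was 1.18 and passed (adjusted p = 0.0175), and within the upper set it was 0.17 (adjusted p = 0.547). Il6ra, the ligand-specific chain for interleukin-6, ranged from 4.22 to 88.3 CPM in WT and from 23.7 to 49.3 CPM in Col5a1CKO wounds. The WT values split by library set, at 4.22 to 18.3 CPM in the lower and 49.6 to 88.3 CPM in the upper set, and the log2 fold change was -0.12 ± 0.54 over all wounds, 1.19 in the lower set and -0.46 in the upper set, none of which passed the test.

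Stat3 was split in the same way. WT wounds held 99.0 to 167 CPM in the lower set and 347 to 414 CPM in the upper set, and Col5a1CKO wounds 177 to 296 CPM and 337 to 348 CPM. The log2 fold change was 0.25 ± 0.33 (adjusted p = 0.654). It was 0.92 (adjusted p = 0.0262) within the lower set, short of 2-fold, and -0.04 (adjusted p = 0.894) within the upper set.

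Socs3, the feedback inhibitor, separated the genotypes completely. It was 5.05 CPM in the lowest, 29.2 in the median and 65.1 in the highest WT wound, and 85.6, 173 and 487 CPM in the Col5a1CKO wounds. Its log2 fold change was 3.01 ± 0.54 (adjusted p = 0.00626). Socs3 was the member called in both library sets, with 3.45 (adjusted p = 0.03) in the lower set, where 5 members were called against a background of 3.68%, and 2.84 (adjusted p = 0.0475) in the upper set, where 1 was called against 8.82%.

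**Figure D1:**
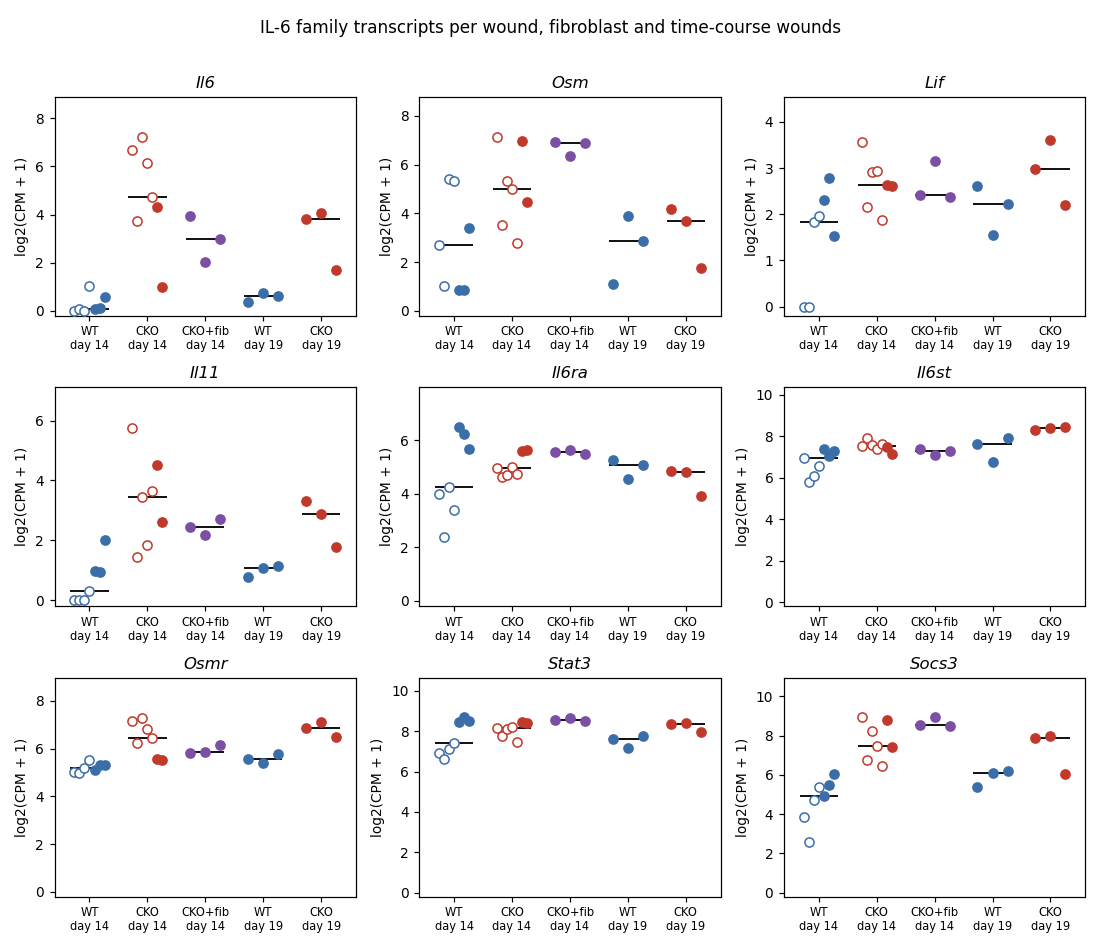
Level of each of the 9 genes in every wound of the first table, as log2(CPM + 1) on the vertical axis, by genotype (CKO, Col5a1CKO; CKO+fib, Col5a1CKO injected with WT fibroblasts) and day. Open points are the lower library set, filled points the upper set, and bars the group medians. Socs3 and Osmr of Col5a1CKO wounds lie above every WT wound at day 14, while the WT values of Il6ra and Stat3 split between open and filled points.

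Genes of other cell types moved with these levels at day 14. Neutrophil markers rose in 4 of 8 genes tested (Csf3r, Cxcr2, Ltf and Ngp), with summed levels of 1144 to 8929 CPM (WT) and 1727 to 19841 CPM (Col5a1CKO). Macrophage and monocyte markers rose in 3 of 7 (Csf1r, Cd68 and Ly6c2), with sums of 316 to 1011 CPM and 964 to 2245 CPM. Ptprc, carried by all leukocytes, rose from 80.1 ± 39.5 to 355 ± 237 CPM (SD, n = 7 each), with no overlap.

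Keratinocyte markers had 0 of 7 called, with sums of 32587 to 158799 CPM for WT and 34.7 to 61411 CPM for Col5a1CKO. The median sums were nonetheless far apart, at 35888.5 CPM for WT and 811.6 CPM for Col5a1CKO. The median log2 fold change of the 7 genes was -1.79. Col5a1CKO replicates d and g had the highest sums of their group, at 29500 and 61411 CPM. Fibroblast markers had 1 of 6 called (Pdgfra), endothelial markers 3 of 5, T cell markers 1 of 5, and skeletal muscle and adipocyte markers 0 of 5 and 0 of 4. Marker sums of WT wounds split by library set. Keratinocyte sums were 32587 to 35888.5 CPM in the lower and 106296 to 158799 CPM in the upper set. Fibroblast sums were 50076 to 84635 CPM in the lower and 8477 to 9546 CPM in the upper set. In Col5a1CKO wounds both sums overlapped between the sets. No marker was at 0 in every library of a group. The part of these cell populations in the changes of the 9 genes was not tested.

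At day 19 the same genes were higher in Col5a1CKO wounds in most samples but none was called by edgeR. Of the 9 members 0 were called, where 0.0198% of 15136 genes were called higher and 0% lower. At an unadjusted p under 0.05, 6 members were higher and 0 lower, where 11.8% of all genes were higher and 12.3% lower, and DESeq2 called 4 (Il6, Il11, Osmr and Socs3), where it called 4.52% of genes higher. The median log2 fold change was 1.07 over the members and -0.01 over all genes. For 5 members every Col5a1CKO wound lay above every WT wound, as was so for 16.4% of all genes. Of the marker genes of other cell types, 0 were called.

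Il6 held 0.3, 0.69 and 0.54 CPM in the 3 WT wounds and 12.9, 15.9 and 2.26 CPM in the Col5a1CKO wounds. All 3 Col5a1CKO wounds were above WT and replicate c was the lowest (log2 fold change 4.42 ± 0.83, adjusted p = 0.11). Il11 held 0.72, 1.11 and 1.23 CPM in WT and 8.85, 6.32 and 2.46 CPM in Col5a1CKO wounds, again with replicate c lowest (2.60 ± 0.56, adjusted p = 0.115).

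Osmr held 45.7, 41.5 and 53.7 CPM in WT and 117, 139 and 88.2 CPM in Col5a1CKO wounds (1.35 ± 0.24, adjusted p = 0.11). Il6st, at 196, 106 and 242 CPM against 317, 337 and 350 CPM, and Stat3, at 196, 141 and 217 CPM against 322, 336 and 244 CPM, did not overlap either. Their log2 fold changes were 0.93 ± 0.36 and 0.76 ± 0.28 (adjusted p = 0.193 and 0.181). Socs3 was at 40.2, 66.1 and 71.8 CPM in WT and at 236, 248 and 64.8 CPM in Col5a1CKO wounds, so that replicate c lay within the WT range (1.70 ± 0.55, adjusted p = 0.159).

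The remaining 3 genes overlapped. Osm held 1.13, 13.8 and 6.22 CPM in WT and 17.0, 11.99 and 2.41 CPM in Col5a1CKO wounds, Lif 5.14, 1.92 and 3.68 against 6.9, 11.3 and 3.57 CPM, and Il6ra 37.7, 22.3 and 32.5 against 28.1, 27.4 and 14.2 CPM. Col5a1CKO replicate c was also lowest of its group for the neutrophil sum, at 583 CPM against 1223 and 2633 CPM, and for Ptprc, at 27.5 CPM against 157 and 161 CPM. This wound also differed in other tissue. Its skeletal muscle sum was the highest of its group, at 25372 CPM against 445 and 1857 CPM. So was its keratinocyte sum, at 21397.5 CPM against 11677 and 6844 CPM. Its fibroblast sum was the lowest, at 111169.5 CPM against 151445 and 151390 CPM. The part of leukocyte numbers or of the other tissue in these values was not tested.

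Whether the genotype difference itself changed from day 14 to day 19 was tested with an interaction term. It was called for 0 of 9 members and for 0% of 15955 genes, 0 members were at an unadjusted p under 0.05 (2.81% of all genes above 0 and 3.07% below), and DESeq2 called 0. The interaction for Il6 was -3.33 ± 1.63 on the log2 scale (adjusted p = 0.86) and that for Socs3 -1.35 ± 0.88 (adjusted p = 0.969). All day 19 wounds belong to the upper library set.

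Injection of WT fibroblasts into Col5a1CKO wounds addressed whether supplying intact fibroblasts changes the tissue. Against control Col5a1CKO wounds no member was called, higher or lower, where 0% of 15660 genes were called higher and 0% lower. At an unadjusted p under 0.05 there were 0 members, where 1.28% of all genes were higher and 11.5% lower, and DESeq2 called 0. Members had a median log2 fold change of -0.07 and all genes one of -0.04.

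Il6 held 14.4, 3.12 and 6.88 CPM in the 3 fibroblast-injected wounds. All 3 lay below the control median of 25.5 CPM and inside the range of that group. The log2 fold change was -2.73 ± 1.30 (adjusted p = 0.405). All fibroblast-injected wounds belong to the upper library set, and within that set, against the 2 control wounds at 18.8 and 0.99 CPM, the log2 fold change was -0.23 ± 1.29. Il11 was at 4.39, 3.51 and 5.53 CPM (-1.75 ± 1.0, adjusted p = 0.446) and within the upper set differed by -1.54 ± 0.64.

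Osm was high in all 3 fibroblast-injected wounds, at 119, 80.5 and 117 CPM, which is within the upper part of the control range (1.0 ± 0.85, adjusted p = 0.597). Socs3 was at 372, 491 and 354 CPM (0.68 ± 0.51, adjusted p = 0.536). Stat3 was at 373, 407 and 361 CPM, above all 7 control wounds, with a log2 fold change of 0.46 ± 0.23 (adjusted p = 0.416) and of 0.21 ± 0.21 within the upper set. The control values split by library set, at 177 to 296 CPM in the lower set and 337 to 348 CPM in the upper set. How many of all genes lay above every control wound was not counted. Lif, Il6ra and Osmr lay within the control range and Il6st within it or just below, with log2 fold changes from -0.65 to 0.48.

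The same fibroblast-injected wounds were also set against WT wounds at day 14, and this comparison shares its samples with both comparisons above. Il6 and Socs3 were called higher, 2 of 9 members, and 0 lower, where 3.77% of 15317 genes were called higher and 2.06% lower, with medians of 1.31 over the members and 0.03 over all genes. The log2 fold change was 5.13 ± 1.27 for Il6 (adjusted p = 0.0352) and 3.82 ± 0.54 for Socs3 (adjusted p = 0.00261). Every fibroblast-injected wound lay above every WT wound for 5 of 9 members (Il6, Osm, Il11, Osmr and Socs3), as for 9.92% of all genes. Osmr was higher by 0.89 ± 0.22 (adjusted p = 0.0328), short of 2-fold, and Osm by 3.07 ± 1.09 without passing (adjusted p = 0.128).

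Within the upper library set 4 members were called (Il6, Osm, Il11 and Socs3), where 19.8% of genes were called higher, with a log2 fold change of 4.97 ± 1.16 for Osm (adjusted p = 0.019), and there all WT wounds held Y-linked and all fibroblast-injected wounds Xist RNA. Deviations of same-letter wounds from their group means correlated at 0.162 to 0.502 over 3 pairs in this comparison. That is no more than a hint of pairing. With the letter as a block 4 members were called (Il6, Il6ra, Stat3 and Socs3), where 9.98% of genes were called higher. That block pairs fibroblast-injected wounds of the upper set with WT wounds of the lower set. Leaving out any of the fibroblast-injected wounds ended the Il6 call, with log2 fold changes of 4.40 to 5.50 and adjusted p of 0.0783 to 0.192, as did the library set as a covariate (5.38, adjusted p = 0.0575).

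Beside these values, the fibroblast-injected wounds had neutrophil marker sums of 7942 to 9783 CPM and macrophage sums of 1719 to 2026 CPM. Of the markers, 4 of 8 neutrophil, 3 of 7 macrophage, 1 of 5 T cell and 2 of 5 endothelial genes and Ptprc were called higher than in WT, and against control wounds 0 were called. Keratinocyte sums were 12698 to 30687 CPM. The part of these populations was not tested.

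In the cilengitide experiment, vehicle-treated Col5a1CKO wounds held more of all 4 ligands and of Socs3 than vehicle-treated WT wounds. Members called were 5 of 9 higher and 0 lower, where 17.5% of 15435 genes were called higher and 13.4% lower. The median log2 fold change was 1.16 over the members and 0.02 over all genes. These wounds were deposited as samples separate from those of the first table, and whether any animal was shared is not stated. The values of both experiments can be read side by side but were not tested against each other.

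Il6 was at 0.22, 0.64, 0.36 and 0.07 CPM in the vehicle WT wounds and at 34.7, 28.4, 36.8 and 8.83 CPM in the vehicle Col5a1CKO wounds, a log2 fold change of 6.35 ± 0.77 (adjusted p = 0.00103). Osm was at 0.82, 3.9, 1.15 and 0.3 CPM against 62.5, 33.5, 320 and 416 CPM, a log2 fold change of 7.01 ± 1.24 (adjusted p = 0.00345). Neither gene overlapped between genotypes, and Osm was highest in Col5a1CKO replicates 3 and 4.

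Il11 was at 0.73, 0.92, 0.75 and 0.57 CPM in WT and at 43.1, 22.3, 8.07 and 7.81 CPM in Col5a1CKO wounds, a log2 fold change of 4.73 ± 0.65 (adjusted p = 0.00145). Here Col5a1CKO replicates 1 and 2 were highest, unlike for Osm, and the groups did not overlap. Lif was at 3.72, 4.77, 5.14 and 3.65 CPM against 7.98, 7.46, 14.5 and 9.87 CPM, a smaller log2 fold change of 1.16 ± 0.25 (adjusted p = 0.00767). Without Col5a1CKO replicate 3, the highest, it was 0.92, under 2-fold.

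None of the 3 receptor chains was called. Il6st was at 181, 150, 119 and 121 CPM in WT and at 222, 250, 113 and 87.2 CPM in Col5a1CKO wounds, and Osmr at 39.1, 46.6, 35.5 and 26.5 CPM against 96.3, 66.4, 47.1 and 35.5 CPM. For both chains Col5a1CKO replicates 1 and 2 were above all WT wounds, whereas replicates 3 and 4 were below all WT wounds for Il6st, and for Osmr replicate 3 was just above the WT maximum and replicate 4 within the WT range. Log2 fold changes were 0.20 ± 0.36 and 0.69 ± 0.33 (adjusted p = 0.67 and 0.112). Il6ra was at 50.8, 44.5, 74.0 and 72.1 CPM against 37.7, 28.8, 45.5 and 48.9 CPM, lower by -0.63 ± 0.23 on the log2 scale (adjusted p = 0.0497), short of 2-fold.

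Stat3 overlapped between the groups, at 264, 277, 294 and 200 CPM in WT and 280, 217, 348 and 329 CPM in Col5a1CKO wounds (0.14 ± 0.20, adjusted p = 0.599). Socs3 was at 18.4, 35.7, 26.7 and 12.6 CPM against 341, 187, 735 and 653 CPM, a log2 fold change of 4.31 ± 0.55 (adjusted p = 0.0012). Every Col5a1CKO wound was above every WT wound, and replicates 3 and 4 were highest, as for Osm.

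Leukocyte markers were also highest in vehicle Col5a1CKO replicates 3 and 4. The neutrophil sum was 4039, 1608, 23092 and 43602 CPM in replicates 1 to 4, and the macrophage and monocyte sum 1765, 1750, 4802 and 5672 CPM, against at most 2206 and 508 CPM in vehicle WT. The fibroblast sum ran the other way, at 81983, 115275, 49939 and 24053 CPM. Of the markers, 7 of 8 neutrophil and 7 of 7 macrophage genes rose, and Krt5, Krt1 and Krt10 fell among 7 keratinocyte genes.

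Fibroblast markers had 2 of 6 higher (Pdgfra and Dcn), endothelial markers 2 of 5, T cell markers 1 higher and 1 lower of 5, adipocyte markers 1 of 3 and skeletal muscle markers 0 of 5. The part of these populations in the ligand and Socs3 levels was not tested.

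**Figure D2:**
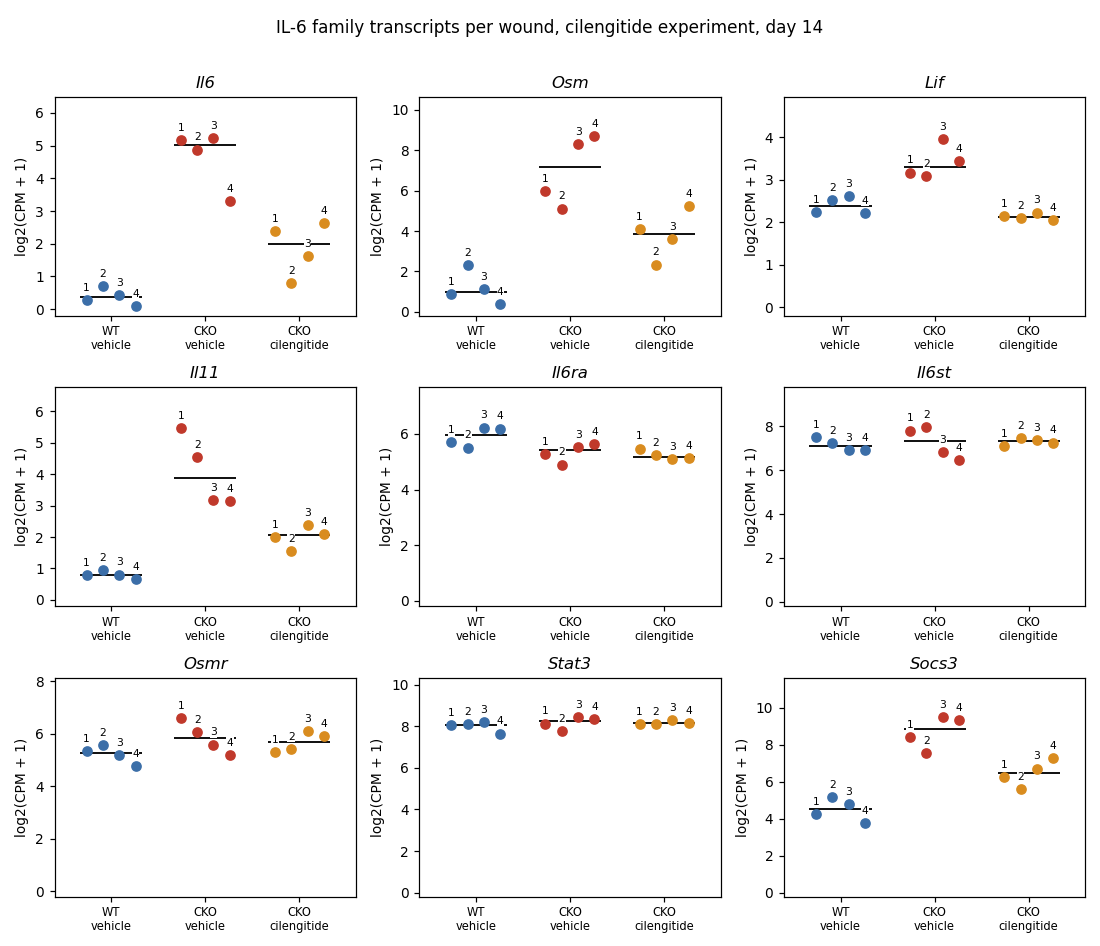
Level of each gene in the 12 wounds of the cilengitide experiment, as log2(CPM + 1) on the vertical axis, in WT vehicle, Col5a1CKO (CKO) vehicle and Col5a1CKO cilengitide groups. Numbers are replicates and bars are group medians. Il6, Il11, Lif and Socs3 of cilengitide wounds lie below all vehicle Col5a1CKO wounds, while the ranges of Stat3 overlap across the 3 groups.

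Cilengitide treatment of Col5a1CKO animals asked whether integrin inhibition changes the wound. The 4 ligands and Socs3 fell against vehicle, 5 of 9 members called lower and 0 higher, where 6.59% of 15564 genes were called lower and 6.48% higher. The median log2 fold change was -1.55 over the members and -0.06 over all genes. This comparison shares the vehicle Col5a1CKO wounds with the one before. How many of all genes lay below every vehicle wound was not counted.

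Il6 was at 4.25, 0.73, 2.06 and 5.24 CPM with cilengitide, below every vehicle Col5a1CKO wound (-3.13 ± 0.68, adjusted p = 0.0176). Il11 was at 3.0, 1.94, 4.21 and 3.29 CPM, also below every vehicle wound (-2.70 ± 0.60, adjusted p = 0.0189). Lif was at 3.39, 3.27, 3.68 and 3.14 CPM, again below every vehicle wound (-1.55 ± 0.23, adjusted p = 0.00625).

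Osm was at 16.3, 4.05, 11.3 and 37.0 CPM, with replicate 4 just above the lowest vehicle wound (-3.59 ± 1.0, adjusted p = 0.0356). Socs3 was at 75.1, 48.4, 105 and 154 CPM, below every vehicle wound (-2.32 ± 0.52, adjusted p = 0.0191). Receptor chains and Stat3 did not pass: log2 fold changes were -0.11 ± 0.18 for Il6ra, -0.09 ± 0.33 for Il6st, -0.23 ± 0.33 for Osmr and -0.02 ± 0.18 for Stat3. Leaving out one wound at a time left 2 to 5 members called, with 3 without vehicle replicate 3 or cilengitide replicate 2, and 2 without cilengitide replicate 1 or 3. In these 4 fits 335 to 426 genes in all were called lower, against 1025. Lif kept its call each time.

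Cilengitide-treated Col5a1CKO wounds were also compared with vehicle WT wounds, whose samples are shared with the first vehicle comparison. Il6, Osm, Il11 and Socs3 were higher, 4 of 9 members, and 0 lower, where 5.15% of 15515 genes were called higher and 3.43% lower, with medians of 0.50 over the members and -0.01 over all genes. Log2 fold changes were 3.26 ± 0.78 for Il6 (adjusted p = 0.0291), 3.48 ± 0.92 for Osm (adjusted p = 0.0366), 2.06 ± 0.30 for Il11 (adjusted p = 0.0193) and 2.04 ± 0.43 for Socs3 (adjusted p = 0.0232). All 4 cilengitide wounds lay above all 4 WT wounds for each of these genes, as for 14.5% of all genes.

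Lif differed from WT by -0.36 ± 0.17 (adjusted p = 0.158), and Il6ra was lower by -0.71 ± 0.19 (adjusted p = 0.0369), short of 2-fold. The calls were close to the threshold: without cilengitide replicate 2, 3 or 4 none of the members was called, without WT replicate 3 there was 1, and without WT replicate 1 or 4 or cilengitide replicate 1 there were 2. Calls over all genes fell too, from 799 higher and 532 lower to 3, 1 and 1 higher and 0 lower without cilengitide replicate 2, 3 or 4, and to 87 and 196 without WT replicate 3. Log2 fold changes for the 4 genes kept their direction in each of these fits, between 1.73 and 4.51.

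Marker genes shifted beside these levels. Ptprc was at 675 ± 374 CPM in vehicle Col5a1CKO and 138 ± 64.8 CPM in cilengitide wounds (SD, n = 4 each, adjusted p = 0.0184), and 2 of 8 neutrophil and 3 of 7 macrophage markers fell. The neutrophil sum was 3116 to 7127 CPM and the macrophage sum 700 to 1105 CPM with cilengitide. Krt1 and Krt10 rose, with Krt10 at 107 ± 155 CPM in vehicle and 10169 ± 6687 CPM in cilengitide wounds. Against vehicle WT, Ptprc, 2 of 8 neutrophil and 4 of 7 macrophage markers, Dcn and Dsg3 were higher, and Krt1 and Krt10 were lower. No T cell, endothelial, skeletal muscle or adipocyte marker was called in either cilengitide comparison. The part of cell composition was not tested.

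**Figure D3:**
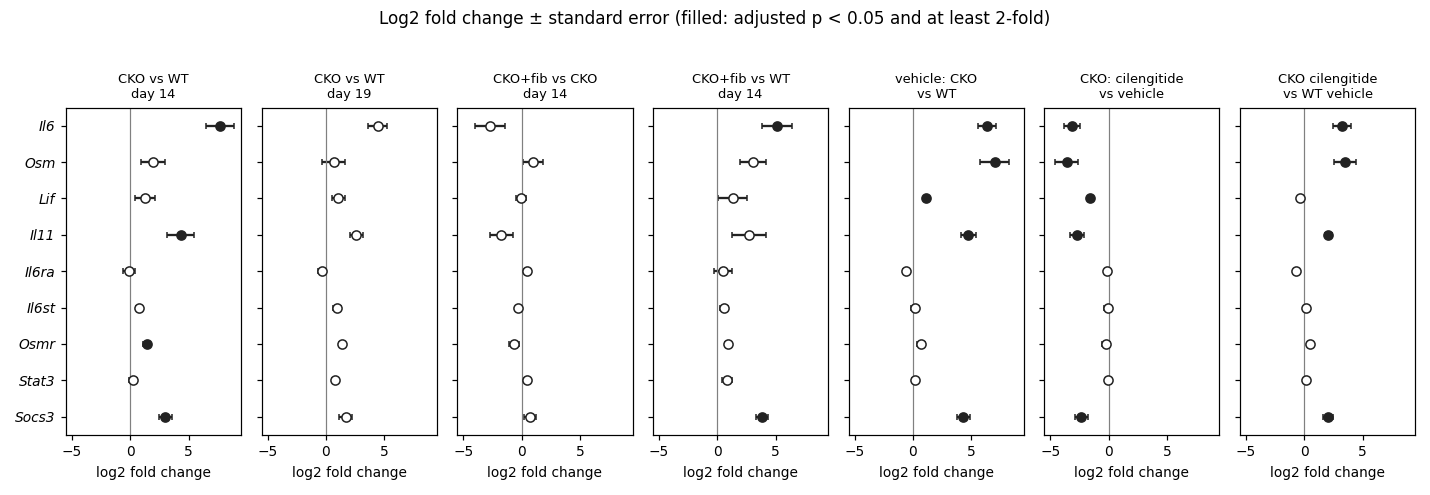
Log2 fold change of each gene in the 7 comparisons (horizontal axis, first-named group over the second), with bars of 1 standard error, hidden where shorter than the point. CKO is Col5a1CKO and fib WT fibroblasts. Filled points passed an adjusted p of 0.05 and a 2-fold change. Filled points are found for the 4 ligands, Osmr and Socs3, and none for Il6ra, Il6st and Stat3.

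Other genes of the pathway were read from lists of 52 genes, of which 48 or 49 were tested in each comparison. The JAK kinase gene Jak2 rose at day 14 from a mean of 71.0 ± 30.9 to one of 183 ± 91.0 CPM (7 wounds each, SD), a difference of 1.36 ± 0.34 (SE) on the log2 scale (adjusted p = 0.0212), and in the vehicle experiment from 48.4 ± 11.5 to 241 ± 82.4 CPM (4 wounds each), a difference of 2.27 ± 0.31 (adjusted p = 0.00135). It fell with cilengitide to 93.1 ± 24.5 CPM (-1.37 ± 0.30, adjusted p = 0.0182). Jak1 and Tyk2 were called in none of these 3 comparisons.

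Of the other ligands, 0 of 5 tested were called at day 14. In the vehicle experiment Ebi3, a subunit of interleukin-27, and Clcf1, a ligand of the ciliary neurotrophic factor receptor, rose by 2.38 ± 0.45 and 1.56 ± 0.55, while Ctf1, encoding cardiotrophin, fell by 2.13 ± 0.41 on the log2 scale. With cilengitide Ebi3 fell by 1.65 ± 0.40 and Ctf1 rose by 1.46 ± 0.38. Ctf2, Il31 and Saa2 were too low to be tested in any comparison, and Il27 in 4 of 8 fits including the interaction.

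Other receptors had 0 of 5 called at day 14 and 1 of 5 in the vehicle experiment (Il27ra, 1.95 ± 0.41). The other STAT genes had 0 of 3 called and the proteases that shed the receptor, Adam10 and Adam17, 0 of 2, in every comparison. Of 7 other negative regulators, Socs2 was called at day 14 (1.53 ± 0.44), Socs1, Socs2 and Ptpn6 were called higher in the vehicle experiment (1.32 to 2.14), and Ptpn6 fell with cilengitide by 1.66 ± 0.43. Socs3 had a larger log2 fold change than each of these regulators in those comparisons. Fibroblast-injected wounds against WT had Ptpn6 called (1.69 ± 0.27).

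The longest list held genes known to be induced by STAT3. Like the other lists, it was chosen with earlier results of these data known, so its counts beside the shares of all genes are a description. At day 14, 9 of 23 tested were higher (5.57% of all genes) and 0 lower, with a median log2 fold change of 1.05. The acute phase genes Saa3 and Hp rose most among them, Saa3 from 27.7 ± 29.3 to 2561 ± 1594 CPM (6.53 ± 0.91, adjusted p = 0.00314) and Hp from 18.0 ± 13.2 to 741 ± 508 CPM (5.35 ± 0.73, adjusted p = 0.0028). Lcn2, an iron-sequestering protein of neutrophils and epithelium, rose by 4.02 ± 0.98. Fibroblast-injected wounds had 8 of 23 higher than WT (3.77% of all genes), led by Saa3, Lrg1 and Hp.

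In the vehicle experiment 18 of 23 were higher (17.5% of all genes) and 1, Myc, was lower (13.4%), with a median of 2.08. Saa3 rose from 3.27 ± 2.50 to 1901 ± 1414 CPM (9.14 ± 1.22, adjusted p = 0.00131) and Hp by 7.91 ± 0.74. With cilengitide 7 of 23 fell (6.59% of all genes) and 0 rose, with a median of -1.40, led by Hp (-3.15 ± 0.78, adjusted p = 0.0253), Il10 (-2.32 ± 0.51) and Fos (-2.01 ± 0.53). Saa3 was at 272 ± 217 CPM with cilengitide and did not pass the test.

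Against vehicle WT, cilengitide wounds had 9 of 23 higher (5.15% of all genes), led by Saa3 (6.40 ± 1.10) and Hp (4.80 ± 0.75). At day 19, and in fibroblast-injected against control wounds, 0 of 23 were called. Many genes of this list also respond to other inflammatory signals and are abundant in leukocytes, whose markers moved in the same comparisons, and their part was not tested.

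**Figure D4:**
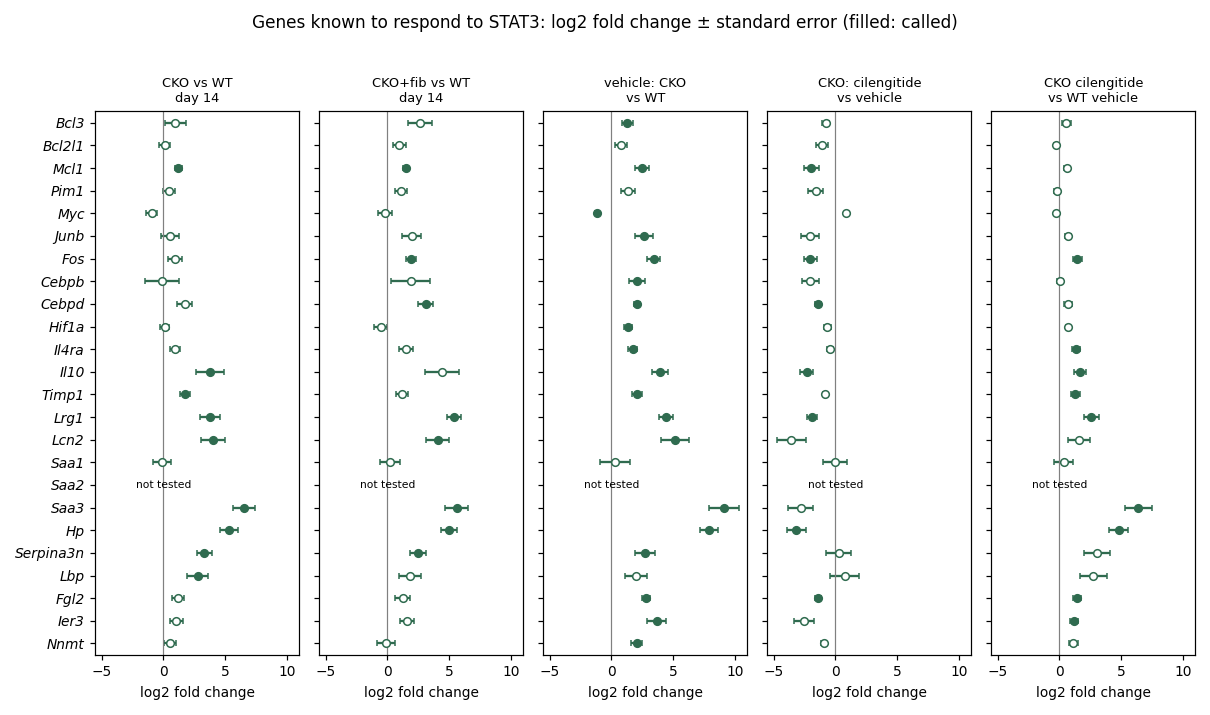
Log2 fold change of 24 genes known to respond to STAT3 (vertical axis) in 5 comparisons (horizontal axis, first-named group over the second), with bars of 1 standard error. CKO is Col5a1CKO and fib WT fibroblasts, and filled points passed the test. Of 23 tested, 18 are higher in the vehicle comparison and 7 are lower with cilengitide. Myc is the gene that is lower in the vehicle comparison.

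Levels between genes can be compared only per transcript length, which the first table gives. They are given as median RPKM, which scales reads by transcript length and library size, within each library set, since the order differed between the sets. In WT wounds at day 14, Stat3 (20.015 in the lower and 54.2 in the upper set) and Il6st (9.82 and 18.5) were the most abundant members in both sets. Il6ra followed at 14.2 in the upper set but was at 2.54 in the lower, below Osm (7.78), Socs3 (4.93) and Osmr (4.77). Il6 was at 0.023 and 0.059. In Col5a1CKO wounds of the lower set Il6 (47.7), Socs3 (47.5) and Stat3 (41.6) were highest, whereas in the 2 wounds of the upper set Socs3 (88.1) and Stat3 (58.1) were highest and Il6 was at 7.16. Ranges of Socs3 and Stat3 overlapped in Col5a1CKO wounds.

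Genes whose levels were most like those of each member were sought among 11493 genes, by the lower of the 2 Pearson correlations over the 23 libraries of the first table and the 12 of the second. They are a description, since the libraries share genotype and cell makeup. For Osm they were Trem1 (0.95 and 0.99), Cd14 (0.94 and 0.99) and G0s2 (0.93 and 0.98). For Socs3 they were Fam65b (0.94 and 0.97), Arid5a (0.93 and 0.99) and Treml2 (0.92 and 0.97). For Il6 they were Cxcl5 (0.92 and 0.94), Car4 (0.89 and 0.91) and Steap4 (0.88 and 0.93).

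For Il11 they were Hmga2 (0.86 and 0.86), Tnfsf11 (0.85 and 0.91) and Runx1 (0.82 and 0.88). For Osmr they were Inhbb (0.85 and 0.84), Avpr1a (0.83 and 0.84) and Il1r1 (0.89 and 0.83), for Il6st Pofut1, Zcchc14 and Fzd8, and for Il6ra Fam134a, Sdc4 and Sphk2. For Lif they were Nfkb2, Plcb2 and Man1b1, and for Stat3 Trim8, Prr13 and Bcl3, for which the lower correlation was 0.79 to 0.81. No gene was named for more than 1 member.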

How the data were processed

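Wound RNA in 35 libraries was sequenced by the study. For the first table, the authors aligned reads with Hisat2 to NCBI37 (mm9) and counted reads over RefSeq exons in SeqMonk, and deposited raw counts per RefSeq row with the transcript length. For the cilengitide table raw counts per symbol were deposited, and the labels name HISAT2 and mm9, while the counter is not given in the sources used here. Where a symbol had several rows (29082 rows for 22831 symbols), the row with the largest total was kept. The group of each wound followed the sample titles, which match the column headers, although a treatment field places the fibroblasts in the day 19 Col5a1CKO wounds.

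Counts of each pair of groups were fitted in edgeR 4.0.16 (R 4.3.3) with TMM normalisation, filterByExpr at a minimum count of 10 and the robust quasi-likelihood test, with Benjamini-Hochberg adjustment over all genes tested. Standard errors are the log2 fold change divided by the square root of the F statistic. Levels are TMM-scaled CPM, and lists were described by counts and medians. The steps were tested on simulated data. Alternatives were DESeq2 1.42.0, its size factors, other filters, rows and fold limits, all groups in one fit, the library sets, the replicate letter as a block, and leaving out each wound of the groups of 3 or 4. The pairing check correlated deviations from group means: it was over 0.1 for all 3 same-letter pairs only in the injected against WT comparison (0.162 to 0.502), a hint from the data alone. The members, and the 52 pathway and 51 marker genes, were chosen with earlier results of these data known. Named genes were all members, the called list genes with the largest changes, marker genes, Col5a1 and, for each member, the 3 genes most like it with at least 5 CPM on average.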

Additional observations from a re-analysis of the deposited data

How the results depend on the processing

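The 20 calls of a member kept their direction in all 226 refits run on them, and 185 of these kept the call while 41 lost it. The numbers of members called moved by more than 1.5 times as follows. Day 14 fell from 4 to 1 within the upper library set (2 against 3 wounds). Day 19 went from 0 to 4 with DESeq2, and to 0 to 1 with one wound left out (1, Osmr, without WT replicate c). Fibroblast-injected against control wounds went from 0 to 1, Il6, with the replicate block. Fibroblast-injected wounds against WT went from 2 to 4 with the block and within the upper set, and to 1 without any one injected wound. Leaving out one wound gave 2 to 5 for cilengitide against vehicle, 0 to 4 for cilengitide against vehicle WT and 4 to 5 for the vehicle comparison. Fits within a library set or with one wound left out use fewer wounds, and for the other shifts the cause was not tested. Directions turned only for members without a call. Il6ra at day 14 was 0.47 with the block, 0.62 with the library set as a covariate and 1.19 in the lower set, and Stat3 was -0.04 in the upper set. In injected against control wounds the covariate and the upper set gave 0.08 and 0.14 for Lif and 0.40 and 0.47 for Osmr, the covariate gave -0.06 for Il6ra and the upper set 0.00 for Il6st. Il6ra in injected wounds against WT was -0.45 and -0.46. With the day 14 wounds of the upper set only, the interaction was 0.58 for Lif, 0.12 for Il6ra and 0.96 for Osmr. Stat3 under cilengitide was 0.05 with all genes kept. With one wound left out, Lif in injected against control wounds ran from -0.43 to 0.09, Il6st from -0.07 to 0.47 in the vehicle comparison and from -0.30 to 0.16 under cilengitide, Osmr from -0.41 to 0.11 and Stat3 from -0.14 to 0.08 under cilengitide.

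The deviations of same-letter wounds from their group means correlated at -0.462 to 0.572 at day 14, -0.434 to -0.317 at day 19 and -0.243 to 0.398 for injected against control wounds, so the letters were not taken as pairs there. In the latter the block can use only the control wounds a to c, all of the lower set, and gave -3.08 for Il6 (adjusted p = 0.0313). The block changed no member's call at day 14 or day 19. With the block, the median of all genes in injected wounds against WT was 0.366 on the log2 scale. The cilengitide wounds carry no shared numbers. Over all genes, DESeq2 called 1245 higher and 850 lower at day 14 (800 and 389 by edgeR), 684 and 713 at day 19 (3 and 0), 9 and 10 for injected against control wounds (0 and 0), 856 and 1186 for injected against WT (578 and 315), 1448 and 718 for cilengitide against WT (799 and 532) and 24 and 16 for the interaction (0 and 0). One fit over all groups gave 1520 and 906 at day 14, 1 and 0 at day 19, 1021 and 970 for injected against WT, and 310 and 173 for cilengitide against WT, where it ended the Osm call (3.47, adjusted p = 0.066). The covariate gave 1299 and 558 at day 14 and 1535 and 1021 for injected against WT, the upper set 1350 and 63 and 2999 and 1691, the lower set 532 and 423 at day 14, and the block 0 and 7 at day 19, 1415 and 1126 for injected against control and 1458 and 1718 for injected against WT. Low reads limit Il6 and Il11 in WT wounds. In some WT wounds of day 14 single reads set the level, such as 1 Il6 read in replicates b and e. Il11 had 21 to 75 reads in the WT wounds of the upper set at day 14.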
